A study of Rattus norvegicus with 3 samples.

Results

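The 10 genes described here serve prostaglandin synthesis and reception, together with annexin A1. They were chosen by name: Pla2g4a, Anxa1, Ptgs1, Ptgs2, Ptges, Ptges2, Ptgis, Ptgds, Ptger4 and Ptgfr, 10 of the 17450 gene rows in the expression table. All 10 had a row and were tested in every comparison. RNA was sequenced from neonatal rat ventricular myocytes, which are heart muscle cells taken with collagenase and DNase from 1-day-old Sprague Dawley pups, enriched over Percoll and by preplating. Cells were exposed to 100 nM dexamethasone (Dex), a synthetic ligand of the glucocorticoid receptor (GR), for 1 h or for 24 h, and were compared with cells given ethanol. Cells of all groups were plated with 10% serum and then held without serum. Each group was 1 sample, whose title speaks of duplicates, so each gene has 1 pooled value per group. A single ethanol control with no stated time served both Dex times, so Dex and time in culture cannot be told apart at either time.

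Prostaglandins are lipid signals made where they act. A phospholipase A2 frees arachidonic acid from membranes, a cyclooxygenase turns it into prostaglandin H2, and terminal synthases turn that into prostaglandin E2, prostaglandin D2 or prostacyclin, which act through G protein-coupled receptors. Glucocorticoids are classically known to hold this pathway back in inflamed tissue, in part through annexin A1, a phospholipid-binding protein first described as an inhibitor of phospholipase A2, and by lowering cyclooxygenase-2. In the heart, prostacyclin and prostaglandin E2 are known as vasodilators and modulators of injury, and prostaglandin F2alpha is a hypertrophic stimulus of cultured cardiomyocytes.

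Levels are in FPKM, fragment counts scaled by transcript length and library size. The words rose, fell and called are kept for genes with a q-value of at most 0.05 in the authors' deposited table. Each log2 fold is the ratio of 2 FPKM values, and its standard error (SE) is the one implied by the test statistic in the authors' deposited table. No spread between replicates was used here, and the depth is unknown. The FPKM sums lay between 643628 and 658159, and 10473 to 10483 genes reached an FPKM of 1 in each group. Cardiomyocyte markers summed to 27092 FPKM at 1 h and 23660 FPKM at 24 h, against 28437 FPKM in control. Of these 8 markers Myl2, a ventricular myosin light chain, fell at 24 h and none rose. The other 7 summed to 18362 FPKM at 1 h and 21204 FPKM at 24 h, against 19660 FPKM in control. No marker of the other cell types searched for was listed at 0 in any group. In RNA from a whole culture, fewer cells of a type and less RNA per cell cannot be told apart.

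In short, both cyclooxygenases and the prostacyclin synthase rose under Dex, the prostaglandin F2alpha receptor fell, and annexin A1, the cytosolic phospholipase A2 and the other 4 genes were not called in any comparison. At 1 h only Ptgs2 was called, 1 of the 10 genes, beside 0.863% of 11582 genes called in either direction and 0.622% called higher. At 24 h 3 of the 10 rose and 1 fell, beside 6.22% of 11673 genes called in either direction, 4.18% higher and 2.04% lower. Directly between the times, 2 were higher at 24 h than at 1 h and none was called lower, beside 4.92% of 11641 genes called in either direction, 3.31% higher and 1.61% lower. The median log2 fold of the 10 genes was 0.16 at 1 h and 0.28 at 24 h, each beside −0.00 over all genes tested. The 2 comparisons with control share the control sample, so their values are not independent.

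**Figure D1:**
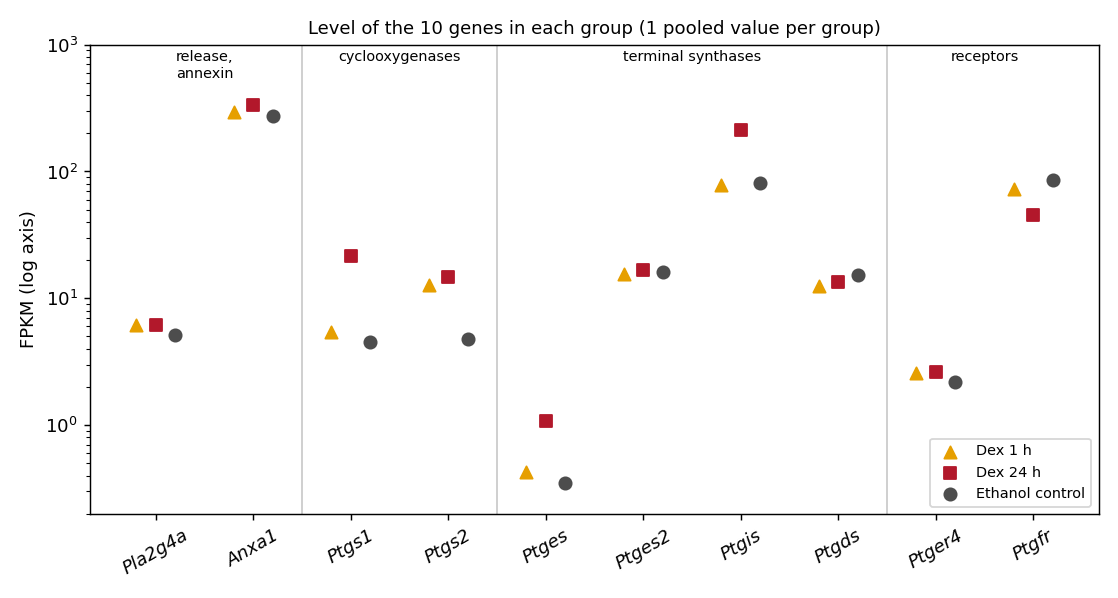
Level of each gene in FPKM on a log axis, 1 pooled value per group (Dex 1 h, Dex 24 h, ethanol control). Ptgs1 and Ptgis stand apart at 24 h, Ptgs2 is high at both Dex times, and Ptgfr is lowest at 24 h.

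The 10 genes spanned a wide range of levels. In control cells Anxa1 was highest (274 FPKM), followed by Ptgfr (85.4), Ptgis (80.4), Ptges2 (16.2), Ptgds (15.2), Pla2g4a (5.13), Ptgs2 (4.74), Ptgs1 (4.55), Ptger4 (2.21) and Ptges (0.350). With 1 value per group no order is claimed between neighbours with close levels, such as Ptgfr and Ptgis or the 2 cyclooxygenases. The highest and lowest of the 10 differed 680-fold at 1 h and 310-fold at 24 h, against 782-fold in control. Ptges was the single gene under an FPKM of 1 in any group.

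Neither gene at the step of substrate release was called. Pla2g4a encodes cytosolic phospholipase A2 alpha, which frees arachidonic acid (XLOC_005278; rn5 chr13:72027800-72172613). It stood at 6.11 FPKM at 1 h and 6.20 FPKM at 24 h, against 5.13 FPKM in control. All 3 values were close, and the log2 folds over control were 0.25 ± 0.36 and 0.27 ± 0.36 (SE). Anxa1 (XLOC_002381; chr1:245192874-245208894) stood at 292 FPKM at 1 h and 332 FPKM at 24 h, against 274 FPKM in control. Both Dex values were above control, with log2 folds of 0.10 ± 0.30 at 1 h and 0.28 ± 0.30 at 24 h. The 95% interval at 24 h, from −0.31 to 0.88, spans 0, so a change of Anxa1 was not shown.

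The cyclooxygenases both rose at 24 h, and Ptgs2 rose at 1 h as well. Ptgs2, the inducible cyclooxygenase-2 (XLOC_005013; chr13:72316369-72322060), stood at 12.7 FPKM at 1 h and 14.8 FPKM at 24 h, against 4.74 FPKM in control. Both Dex values lay well above control and close to each other. In the authors' deposited table the rise was called at 1 h (log2 fold 1.42 ± 0.37, q = 0.00238) and at 24 h (1.65 ± 0.37, q = 0.00238). The difference between 24 h and 1 h was 0.23 ± 0.34 and was not called. Its interval, from −0.44 to 0.90, spans 0.

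Ptgs1, the constitutive cyclooxygenase-1 (XLOC_009972; chr3:20869934-20891511), stood at 5.46 FPKM at 1 h and 21.7 FPKM at 24 h, against 4.55 FPKM in control. The 24 h value stood alone above the other two. The log2 fold over control was 0.26 ± 0.36 at 1 h, not called, and 2.25 ± 0.35 at 24 h, called in the authors' deposited table (q = 0.00238). The direct comparison of 24 h with 1 h was called as well, at 1.99 ± 0.34. Of the 10 genes this was the largest log2 fold in either comparison.

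The make-up of cyclooxygenase transcript differed between the groups. The ratio of Ptgs2 to Ptgs1 was 2.32 at 1 h and 0.685 at 24 h, against 1.04 in control. The 2 transcripts together came to 18.1 FPKM at 1 h and 36.5 FPKM at 24 h, against 9.29 FPKM in control. Ptgs2 made up 69.9% of that sum at 1 h and 40.7% at 24 h, against 51.0% in control. These sums and shares are descriptions of pooled values and carry no test.

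**Figure D2:**
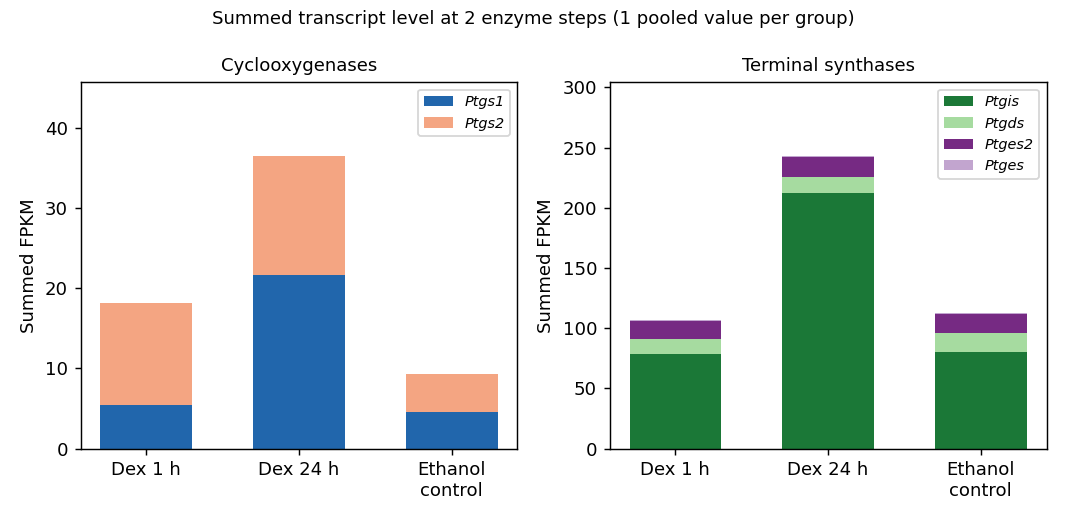
Summed FPKM of the 2 cyclooxygenases (left) and of the 4 terminal synthases chosen here (right). Bars are for Dex 1 h, Dex 24 h and ethanol control, stacked by gene from a 0 baseline. Other prostanoid synthases, such as Ptges3, are left out. The cyclooxygenase sum is 18.1 at 1 h and 36.5 at 24 h against 9.29 in control, with Ptgs1 the greater part at 24 h, and the synthase sum at 24 h is mostly Ptgis.

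The promoters of the 2 cyclooxygenases are shown because these genes catalyse the same reaction, and of the pair Ptgs2 was called at 1 h and at 24 h, Ptgs1 at 24 h. The sequences are RefSeq's, from build GRCr8, and run 5′ to 3′ along each gene's strand up to and just past its annotated start. They are not in the rn5 coordinates of the expression table. Motif matches stand in capitals: the E-box CACGTG and the C/EBP motif TTNNGCAA (read on both strands).

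Ptgs2 promoter, GRCr8 chr13:64713813-64714112, plus strand: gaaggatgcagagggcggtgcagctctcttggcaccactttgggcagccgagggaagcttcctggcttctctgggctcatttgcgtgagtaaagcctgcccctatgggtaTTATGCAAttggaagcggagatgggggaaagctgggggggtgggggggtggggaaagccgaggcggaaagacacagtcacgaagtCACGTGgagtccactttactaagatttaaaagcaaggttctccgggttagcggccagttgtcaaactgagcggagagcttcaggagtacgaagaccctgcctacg

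Ptgs1 promoter, GRCr8 chr3:39981169-39981468, plus strand: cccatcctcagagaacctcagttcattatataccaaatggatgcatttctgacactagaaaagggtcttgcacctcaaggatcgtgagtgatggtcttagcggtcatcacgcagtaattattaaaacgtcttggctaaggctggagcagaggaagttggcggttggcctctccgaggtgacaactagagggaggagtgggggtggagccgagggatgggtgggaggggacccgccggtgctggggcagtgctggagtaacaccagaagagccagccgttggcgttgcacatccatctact

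In Ptgs2 the C/EBP match TTATGCAA lay at −140 to −133 from the annotated start and the E-box at −55 to −50. None of the motifs searched was found in Ptgs1, and nothing stands in capitals there. Of 33469 rat promoters of the same length, 10.6% held the C/EBP motif and 6.42% the E-box. The single GR element AGAACA (20.7% of promoters), the TATA box TATAAA (14.2%) and the paired GR element, GNACA and TGTNC with 3 bases of any kind between them (0.439%), were searched on both strands too. None of these 3 was found in either sequence. A match is a run of letters and not a shown binding site, and a missing match says only that these letters are not in this window.

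Among the terminal synthases chosen here only Ptgis was called. Ptgis encodes prostacyclin synthase, a cytochrome P450 enzyme that makes prostaglandin I2 (XLOC_011291; chr3:170109316-170143882). It stood at 78.2 FPKM at 1 h and 212 FPKM at 24 h, against 80.4 FPKM in control. The 1 h and control values nearly coincide, and the 24 h value is far above both. In the authors' deposited table the log2 fold over control was −0.04 ± 0.31 at 1 h, not called, and 1.40 ± 0.31 at 24 h (q = 0.00238). The direct comparison of 24 h with 1 h gave 1.44 ± 0.31 and was also called.

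Ptges, the inducible microsomal prostaglandin E synthase 1 (XLOC_010672; chr3:15086725-15098070), stood at 0.430 FPKM at 1 h and 1.07 FPKM at 24 h, against 0.350 FPKM in control. Its 24 h value was the highest of the 3, at a low level. The log2 fold at 24 h was 1.62 ± 0.70, close to that of Ptgs2, but it was not called in the authors' deposited table (p = 0.00365, q = 0.0800). With 1 added to both FPKM values this fold was 0.62.

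Ptges2, the membrane-associated prostaglandin E synthase 2 (XLOC_009954; chr3:16773064-16780249), stood at 15.4 FPKM at 1 h and 16.7 FPKM at 24 h, against 16.2 FPKM in control. Ptgds, the lipocalin-type prostaglandin D synthase (XLOC_010604; chr3:2667537-2670472), stood at 12.6 FPKM at 1 h and 13.4 FPKM at 24 h, against 15.2 FPKM in control. Both stayed within a narrow span, and neither was called, with log2 folds at 24 h of 0.04 ± 0.33 for Ptges2 and −0.18 ± 0.39 for Ptgds. The 4 synthases together summed to 107 FPKM at 1 h and 243 FPKM at 24 h, against 112 FPKM in control. Ptgis held 73.3% of this sum at 1 h and 87.2% at 24 h, against 71.7% in control. Other prostanoid synthases and reductases, examined below as a list, are left out of the sum. Of these, Ptges3 stood at 202 FPKM at 1 h and 182 FPKM at 24 h, against 144 FPKM in control. Akr1b1 stood at 160 FPKM at 1 h and 129 FPKM at 24 h, against 170 FPKM in control. Neither was called. The shares of Ptgis therefore hold only among the 4 genes summed. The Ptgis level was 6.21 times that of Ptgds at 1 h and 15.8 times at 24 h, against 5.27 times in control.

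**Figure D3:**
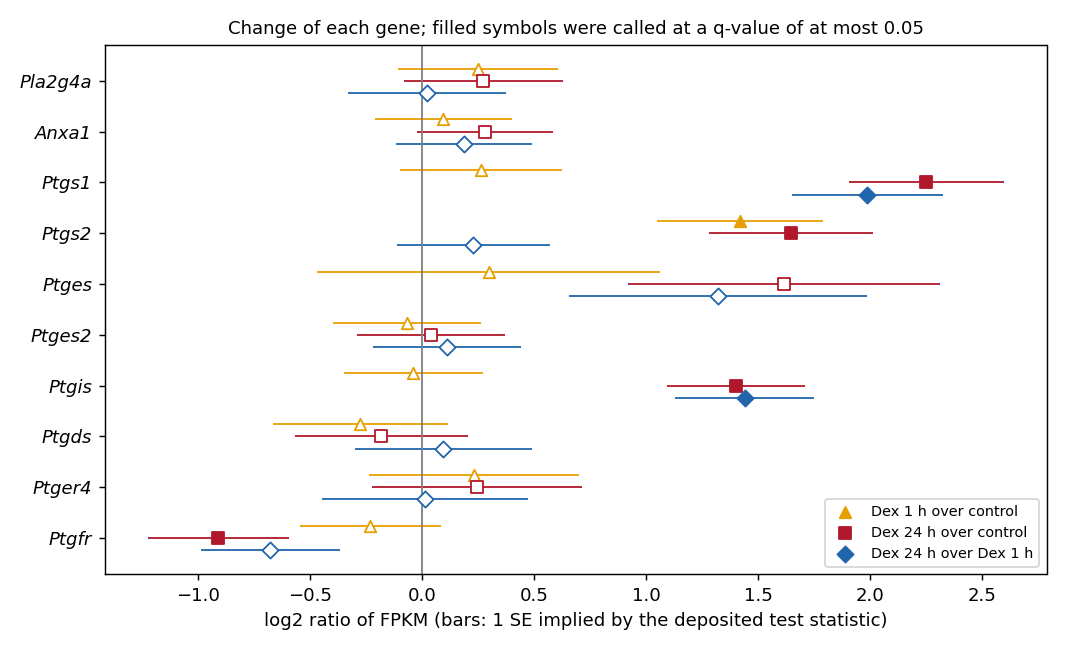
Log2 ratio of FPKM for each gene in the 3 comparisons, with bars of 1 SE implied by the deposited test statistic and filled symbols for called values. Ptgs2 is filled for both times over control, Ptgs1 and Ptgis for 24 h over control and 24 h over 1 h, and Ptgfr for 24 h over control alone.

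The receptors differed in level, and only Ptgfr was called. Ptgfr, the receptor of prostaglandin F2alpha (XLOC_009299; chr2:275684138-275716415), stood at 72.8 FPKM at 1 h and 45.5 FPKM at 24 h, against 85.4 FPKM in control. Both Dex values were below control, the 24 h value by more. In the authors' deposited table the log2 fold was −0.23 ± 0.32 at 1 h, not called, and −0.91 ± 0.32 at 24 h, called (q = 0.00437). The 24 h value was 0.532 of control. The difference between 24 h and 1 h, −0.68 ± 0.31, missed the mark in the authors' deposited table (p = 0.0024, q = 0.0574), and it passed when p-values were adjusted within that comparison alone (q = 0.0462).

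Ptger4, the EP4 receptor of prostaglandin E2 (XLOC_008906; chr2:73975580-73986208), stood at 2.59 FPKM at 1 h and 2.62 FPKM at 24 h, against 2.21 FPKM in control. The 3 values were close, with log2 folds of 0.23 ± 0.47 and 0.25 ± 0.47 over control. The Ptgfr level was 28.1 times that of Ptger4 at 1 h and 17.4 times at 24 h, against 38.7 times in control.

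The promoter of Ptgfr is shown because it is the gene that fell. It comes from the same RefSeq build and carries the C/EBP motif at −34 to −27, on the opposite strand, and at −23 to −16.

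Ptgfr promoter, GRCr8 chr2:243425574-243425873, minus strand: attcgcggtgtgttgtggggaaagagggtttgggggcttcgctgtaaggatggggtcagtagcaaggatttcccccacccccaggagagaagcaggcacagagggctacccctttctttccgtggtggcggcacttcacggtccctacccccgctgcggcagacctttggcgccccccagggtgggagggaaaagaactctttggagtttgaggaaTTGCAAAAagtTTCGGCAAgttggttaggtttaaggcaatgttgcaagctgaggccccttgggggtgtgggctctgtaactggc

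Sequences were matched for 8 of the 10 genes, all but Ptges2 and Ptgis, and 4 of the 8 held the C/EBP motif: Ptgs2, Ptgfr, Anxa1 and Ptges. Other matches were the TATA box in Anxa1 at −46 to −41, and in Pla2g4a at −108 to −103 on the opposite strand. The last was the single GR element in Ptges, where it overlaps the C/EBP match by 1 base. The paired GR element was found in none of the 8. Of the genes called at 24 h with a sequence, Ptgs2 and Ptgfr held a match and Ptgs1 held none, so no motif was found in all 3 of these genes.

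The other prostanoid, annexin and leukotriene genes were examined as 7 lists of 74 genes, 66 of them with a row. None of 49 tested was called at 1 h. At 24 h 4 of 50 rose, 46 were not called and none fell, which is 8% of those tested beside the 6.22% over all genes. The median log2 folds of the lists at 24 h ran between −0.02 and 0.35, beside −0.00 over all genes tested.

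Each of the 4 genes that rose belongs to another step. Hpgd, the 15-hydroxyprostaglandin dehydrogenase that inactivates prostaglandins, stood at 0.271 FPKM at 1 h and 1.15 FPKM at 24 h, against 0.189 FPKM in control (log2 fold at 24 h 2.60 ± 0.73). Tbxa2r, the thromboxane A2 receptor, stood at 4.92 FPKM at 1 h and 9.32 FPKM at 24 h, against 5.21 FPKM in control (0.84 ± 0.37). Its q-value at 24 h in the authors' deposited table, 0.0471, was just under the limit. Gstm2, a glutathione S-transferase, stood at 64.8 FPKM at 1 h and 134 FPKM at 24 h, against 73.1 FPKM in control (0.87 ± 0.32). Glutathione S-transferases of this class are close copies of each other, so reads may be split between them and the Gstm2 value is uncertain. Alox5ap, the protein that presents arachidonic acid to 5-lipoxygenase, stood at 0.656 FPKM at 1 h and 2.94 FPKM at 24 h, against 0.446 FPKM in control (2.72 ± 0.67). None of the 4 was called at 1 h, where Hpgd was not tested, and all 4 were called for 24 h over 1 h. Hpgd and Alox5ap stood under an FPKM of 1 at 1 h and in control, so their folds rest on low levels.

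**Figure D4:**
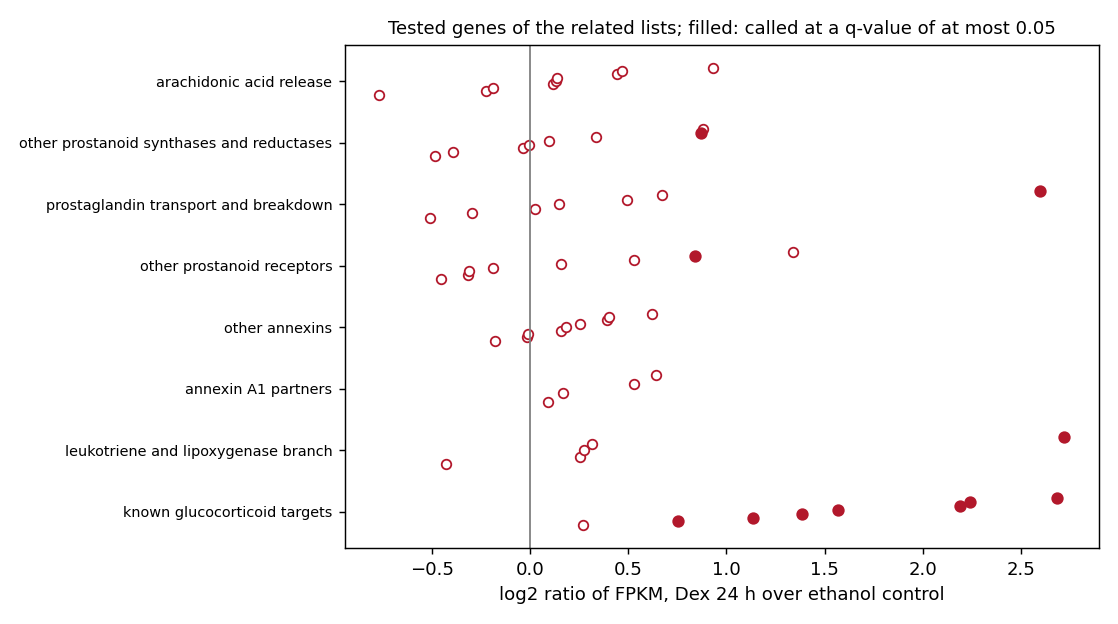
Log2 ratio of FPKM, Dex 24 h over ethanol control, for every tested gene of the 7 related lists and of a list of known glucocorticoid targets, with filled symbols for called genes. Of the related lists 4 genes are filled, 1 each among synthases and reductases, transport and breakdown, receptors, and the leukotriene branch, while 7 of 8 glucocorticoid targets are filled.

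The other lists gave no call. Among 9 tested phospholipase genes the most abundant was Plaa, a phospholipase A2-activating protein, at 36.2 FPKM at 1 h and 32.6 FPKM at 24 h, against 30.1 FPKM in control. None of 9 other annexins was called. Their most abundant member, Anxa2, stood at 996 FPKM at 1 h and 1018 FPKM at 24 h, against 1030 FPKM in control. The list headed annexin A1 partners held S100 genes, Trpm7 and formyl peptide receptors. Whether each of them binds annexin A1 was not examined. Of this list 4 genes were tested and none called. Its most abundant member, S100a4, a small calcium-binding protein, stood at 2633 FPKM at 1 h and 3595 FPKM at 24 h, against 2492 FPKM in control. Ptgir, the prostacyclin receptor, was named after its values were seen because its ligand is made by Ptgis. It stood at 2.03 FPKM at 1 h and 2.11 FPKM at 24 h, against 2.63 FPKM in control, and was not called.

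Markers of other cells were examined at 24 h, where 6.22% of all genes tested were called, 4.18% higher and 2.04% lower. Of 8 endothelial markers 4 rose at 24 h, and their summed level was 153 FPKM at 1 h and 228 FPKM at 24 h, against 155 FPKM in control. Of 8 macrophage and leukocyte markers 3 rose, 5 were not called and none fell. The 8 summed to 128 FPKM at 1 h and 196 FPKM at 24 h, against 122 FPKM in control. They did not move as 1 set. Among the 5, the log2 fold at 24 h was −0.68 ± 0.42 for Ptprc, −0.46 ± 0.35 for Cd68 and 0.69 ± 0.32 for Lyz2. For 24 h over 1 h, 2 of the 8 were called higher and 1, Ptprc, lower. Of 8 smooth muscle and pericyte markers 1 rose and 1 fell, with sums of 7666 FPKM at 1 h and 9587 FPKM at 24 h, against 8810 FPKM in control. Fibroblast markers summed to 4414 FPKM at 1 h and 3706 FPKM at 24 h, against 4528 FPKM in control, and 1 of 8 rose. Most of this sum was Col1a2 (1592 FPKM at 24 h, 1876 FPKM in control) and Col3a1 (1537 and 2079 FPKM), neither of them called. Postn and Ddr2 were also below control at 24 h, while Pdgfra, Tcf21, Dcn and Lum were above it. The median log2 fold of the 8 at 24 h was −0.03. The part of any of these cell types in the changes of the prostaglandin genes was not tested.

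For each called gene the 3 genes with the closest pair of log2 folds over control were found among 10234 genes whose FPKM was 1 or more in all 3 groups. The measure was the distance in the plane of the 2 folds. Every distance given below is smaller than the SE of either fold of the called gene. No order among genes this close is therefore claimed. Nearest to Ptgs1 were Gpr116, an adhesion G protein-coupled receptor, Dbh, the dopamine beta-hydroxylase, and Emcn, the endothelial sialomucin endomucin, at distances of 0.09 to 0.15. Emcn, which is also on the endothelial list, stood at 2.29 FPKM at 1 h and 8.30 FPKM at 24 h, against 1.94 FPKM in control. Nearest to Ptgis were the kinase Ptk2b, the receptor Il17re and the receptor kinase Kit, at 0.03 to 0.05.

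Nearest to Ptgs2 were Zfp697, the Krüppel-like factor Klf9 and the protocadherin Pcdh20, at 0.04 to 0.22. Zfp697 has more than 1 row in the table, and the row meant here stood at 6.62 FPKM at 1 h and 7.49 FPKM at 24 h, against 2.47 FPKM in control. Klf9, a known target of glucocorticoids, stood at 43.0 FPKM at 1 h and 50.9 FPKM at 24 h, against 17.2 FPKM in control. Nearest to Ptgfr were the phosphatase Ptp4a3, Epb41l4b and the cell cycle inhibitor Cdkn2a, at 0.01 to 0.03. Cdkn2a alone of these 12 genes was called at neither time.

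Regions bound by GR came from a ChIP experiment of another series, in which Dex was set against DMSO, and were assigned to genes by the authors. Height, ratio and distance are the authors' values. Of the 10 genes 6 had at least 1 region, beside 33.2% of all gene rows and 45.6% of the rows tested at 1 h. They had 11 regions in all, 5 of them above the median height of all 8514 regions (20.9). Of the 11, 7 were assigned to another gene as well.

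**Figure D5:**
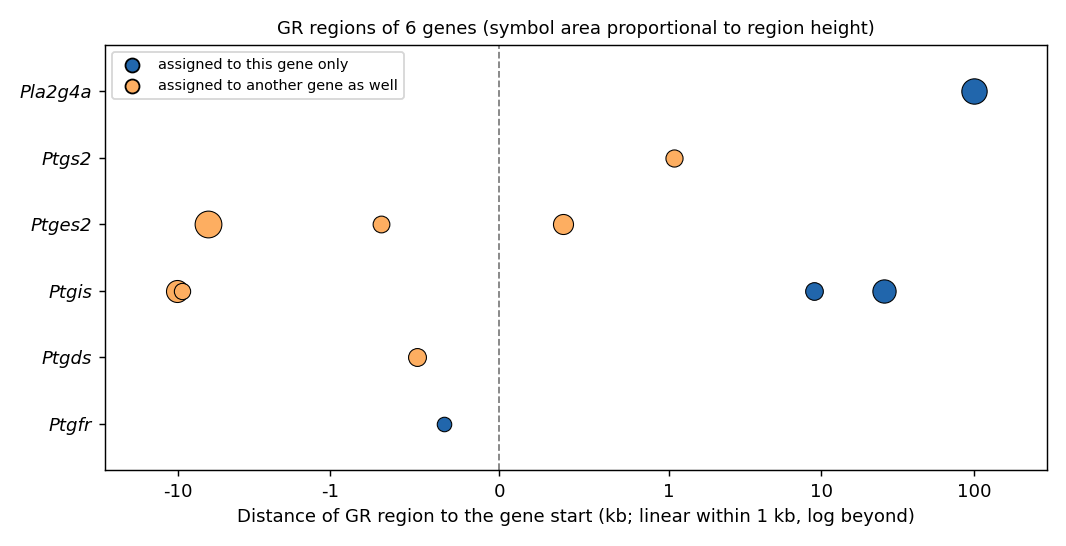
Each GR region of 6 genes by its distance to the gene start in kb (negative is upstream), with symbol area proportional to the region's height and colour for regions shared with another gene. Ptgis has 4 regions and Ptges2 has 3, and the region with the greatest height lies upstream of Ptges2.

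Ptgs2, called at both times, had 1 region inside the gene, 1.09 kb past the start (chr13:72317315-72317597). Its height was 18, below the median, and its log2 ratio of Dex over DMSO was 4.17. The same region was also assigned to LOC100911717, at −1409 bases from the start of that gene. Ptgis had 4 regions, at −10.02, −9.29, 8.91 and 25.7 kb from the start, with heights of 29.7, 16.3, 19.1 and 33.2. The farthest downstream had a log2 ratio of 4.05. Those at −10.02 and −9.29 kb were also assigned to LOC685963 and lay nearer to its start, at −6036 and −6765 bases. Among genes with a region, 5.99% had 4 or more. Ptgfr, which fell, had 1 region at −0.327 kb with a height of 12.9, lower than all but 1.16% of regions.

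Genes that were not called had regions too. Pla2g4a had 1 inside the gene, 101 kb past the start, with a height of 39.4 and the highest log2 ratio of the 11, 4.98. Ptgds had 1 at −0.486 kb with a height of 19.6. Ptges2 had 3, of which the highest (43.9) lay at −6.30 kb from its start and at −364 bases from that of Lcn2, a secreted lipocalin. Lcn2 rose at 24 h, to 35.7 FPKM, with 3.91 FPKM at 1 h, against 2.15 FPKM in control, while Ptges2 was not called.

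Ptgs1, which had the largest fold, was assigned no region. The nearest lay 33.9 kb from its row and was assigned to Mrrf. The sheet assigned no region more than 10401 bases upstream of a gene start. Among its regions, the nearest to the other genes without one lay 89.3 kb from Ptges, 93.0 kb from Ptger4 and 922 kb from Anxa1. Only these regions were searched, for Ptgs1 too, so GR binding outside them was not examined. Of the 4 genes called at 24 h 3 had a region (75%), beside 46.1% of all rows called at 24 h and 45.6% of all rows tested. The single gene called at 1 h had one, beside 68% of rows called at 1 h. With so few genes these shares are a description.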

How the data were processed

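RNA of 3 samples, 1 per group, was analysed, grouped by the treatment in the labels. Per the submitters' processing notes, TopHat, Cufflinks and Cuffdiff and the build rn5 were used, with no versions or roles. Per the file headers, the authors deposited 1 FPKM value per gene and group, and for each pair of groups a test statistic (a score), a p-value and a q-value. Adjusting all 34896 deposited p-values of the 3 comparisons together by Benjamini-Hochberg returned the deposited q-value. No source used here states whether the duplicates entered that test separately, so p-values may measure technical spread only. Log2 folds were computed here from the deposited FPKM values. The SE is the log2 fold divided by the deposited statistic. An SE from the deposited p-value would be smaller, by a factor of 1.42. Depth is unknown, and no test was run here.

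The height of a GR region is the authors' deposited signal, and its deposited log2 ratio compares Dex with DMSO. No source used here states how peaks were called, and the ChIP values per sample, 6 columns, were left out. Region coordinates are printed as deposited. Motifs were searched in RefSeq promoters. Python 3.11.15, numpy 2.4.6, pandas 2.3.3, scipy 1.17.1 and matplotlib 3.10.9 were used, and the adjustment was tested on simulated data.

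The 10 genes, the lists and the markers were chosen with earlier results of these data known. Named were the 10 genes, up to 4 called genes per list or, with none called, the one with the highest mean FPKM, and the 3 genes nearest to each called gene. The lists of erythroid and epicardial markers are given in the closing section. Alternatives were another q-value limit, adjustment, least fold, filter, pseudocount or scaling, and stricter sets of regions.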

Additional observations from a re-analysis of the deposited data

Results flagged for a closer look

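The changes of 2 genes differed between the times in the authors' deposited test of 24 h against 1 h, which compares the Dex groups directly. Ptgs1 was higher at 24 h than at 1 h by a log2 fold of 1.99 ± 0.34, with 21.7 FPKM at 24 h and 5.46 FPKM at 1 h. Ptgis was higher at 24 h than at 1 h by 1.44 ± 0.31, with 212 FPKM at 24 h and 78.2 FPKM at 1 h. In both cases the 1 h value differed from control by less than 1 SE. Each group is 1 pooled value, and the ethanol control has no stated time.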

How the results depend on the processing

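The 4 genes called at 24 h and the 1 called at 1 h were the same genes under each of the 5 alternatives for calls: a q-value of at most 0.01, adjustment within the comparison alone, a change of 1.5-fold or more, a filter at an FPKM of 1, and that filter with p-values adjusted anew. For 24 h against 1 h the count was 2 under 3 of these. It was 3 with adjustment within the comparison and 3 with the filter and new adjustment, Ptgfr being added in both (q = 0.0462 and 0.0458). Ptges at 24 h stayed above 0.05 under both adjustments (q = 0.0529 and 0.0522). Of 120 log2 folds recomputed with pseudocounts, centring or rescaling, 118 moved by less than 1 SE and none of a called gene changed sign. Both exceptions were Ptges with 1 added to the FPKM values, 0.62 at 24 h over control and 0.54 for 24 h over 1 h. With regions above the median height only, 3 of the 10 genes had a GR region in place of 6, Ptgs2, Ptgds and Ptgfr losing theirs. Within 10 kb of the start 5 did, Pla2g4a losing its own. No paired analysis was possible because each group is 1 sample. With 1 pooled value per group and unknown depth, that Anxa1, Pla2g4a, Ptger4, Ptges2 and Ptgds were not called does not show that they did not change.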

Other observations

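As a yardstick for the size of these changes, 8 known glucocorticoid targets were examined, a list chosen with earlier results of these data known. Of these 6 rose at 1 h and 7 at 24 h, with median log2 folds of 1.11 at 1 h and 1.48 at 24 h. Fkbp5, the co-chaperone of steroid receptors, stood at 16.8 FPKM at 1 h and 57.7 FPKM at 24 h, against 8.97 FPKM in control. The folds of Ptgs2, 1.42 at 1 h and 1.65 at 24 h, lie near those medians.

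Red cell genes rose at both times: 3 of 3 tested erythroid markers at 1 h and 3 of 4 at 24 h, with sums of 182 FPKM at 1 h and 194 FPKM at 24 h, against 90.5 FPKM in control. Of 6 tested epicardial and mesothelial markers 1, Krt19, rose at 24 h. Over all genes tested, 0.622% were called higher at 1 h and 4.18% at 24 h. Pla2g4a and Ptgs2, the first 2 enzymes of the pathway in order of action, are neighbours on chromosome 13, where 144 kb lie between their rows. Ptgs2 rose at both times and Pla2g4a was called at neither.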
